A study of Drosophila melanogaster with 2 samples.

Results

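The nuclear genes for the subunits of oxidative phosphorylation were examined for binding of CG12744, a Drosophila melanogaster protein assayed as a transcription factor. The genes were taken by symbol from the protein-coding genes of the BDGP6 annotation: those that begin with ND-, with COX and a digit, or with ATPsyn, UQCR or Sdh. This gave 88 of 13945 protein-coding genes. They comprise 40 genes named for complex I, 7 for complex II, 9 for complex III, 16 for complex IV, 15 for complex V and the assembly factor gene Sdhaf3. Of the 88, 24 are paralogues of another subunit gene, marked by an L at the end of the symbol or before a last digit, and 63 are the other subunit genes. The originals of COX6AL, COX6AL2, COX6CL and ATPsynepsilonL are levy, cype and sun, which have names outside the rule, and those of the other paralogues are among the 88. The binding data come from chromatin immunoprecipitation with an antibody against green fluorescent protein (GFP), followed by sequencing. Whole embryos of both sexes, 0 to 24 h old, were used, from a transgenic strain that stably expresses CG12744 fused to GFP at its C-terminus. The labels give 1 group of 2 biological replicates, called replicate 2 and replicate 4. A control that the records name was not used here. Chromatin was sonicated and the stated fragment size was 200 to 800 bp. The embryos contain all tissues and a wide range of stages, so a peak cannot be assigned to a cell type, and the tagged protein came from a transgene.

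Oxidative phosphorylation takes place in the inner mitochondrial membrane. Complexes I and II pass electrons from NADH and succinate to ubiquinone, complex III passes them on to cytochrome c, and complex IV passes them to oxygen. Complex V, the ATP synthase, uses the resulting proton gradient to make ATP. Most subunits are encoded in the nucleus and scattered over the chromosomes, while a small core is encoded in mitochondrial DNA. Several nuclear genes of Drosophila exist as an additional copy, and many such copies are known to be expressed mainly in the male germline.

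A promoter peak is a peak whose summit lies within 500 bp of any annotated start site of a gene. The authors' thresholded list holds 2758 peaks, and 11 of the 88 genes (12.5%, exact 95% binomial interval 6.41 to 21.3%) had a promoter peak in it, against 14.4% of all protein-coding genes. The share of the genes was thus close to the background. The 11 genes were 5 of complex I (ND-ASHI, ND-MWFE, ND-24, ND-51 and ND-SGDH), 4 of complex IV (COX5A, COX5B, COX6B and COX7B) and 2 of complex V (ATPsynC and ATPsynF). None was a paralogue, and none belonged to complex II or complex III.

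The sequence under the summit is shown for 6 of these promoters, to let the summit be placed against the start sites on both sides and against short core promoter sequences. They are from the RefSeq Release 6 sequence, which is the dm6 build, on the strand of the named gene. Each reaches at most 149 bases to either side of the summit and was shortened to hold at most 30 bases of annotated UTR. Capitals mark CACTG, a 5-base sequence, and GTCACACT, the core of the promoter element known as motif 1, each on either strand. The 2 overlap in GTCACACTG. ND-ASHI is shown at chrX:6679216-6679514 (minus strand, summit at base 150), in an intron of Fum1.
ND-ASHI: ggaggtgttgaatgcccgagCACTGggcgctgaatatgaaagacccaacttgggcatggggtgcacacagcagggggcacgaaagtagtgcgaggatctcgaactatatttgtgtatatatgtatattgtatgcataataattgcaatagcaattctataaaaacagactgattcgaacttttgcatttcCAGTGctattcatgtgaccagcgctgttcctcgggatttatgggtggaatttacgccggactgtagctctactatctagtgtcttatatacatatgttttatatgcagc
ND-51 is shown at chr2L:6062743-6062999 (minus strand, summit at base 150), with the start of CG13994 at base 11 and that of ND-51 at base 243.
ND-51: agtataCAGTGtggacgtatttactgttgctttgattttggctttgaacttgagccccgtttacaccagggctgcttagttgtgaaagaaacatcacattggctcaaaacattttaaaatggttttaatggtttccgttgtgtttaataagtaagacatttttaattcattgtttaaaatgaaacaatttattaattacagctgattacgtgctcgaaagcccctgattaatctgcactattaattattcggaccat
COX5A is shown at chr3R:11819406-11819562 (plus strand, summit at base 121), with a start of glo at base 15.
COX5A: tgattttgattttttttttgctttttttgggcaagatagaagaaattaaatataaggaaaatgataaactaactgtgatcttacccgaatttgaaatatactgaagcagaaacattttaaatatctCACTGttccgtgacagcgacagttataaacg
COX6B is shown at chrX:19744321-19744445 (minus strand, summit at base 52), with the start of CG33932 at base 15 and that of COX6B at base 111.
COX6B: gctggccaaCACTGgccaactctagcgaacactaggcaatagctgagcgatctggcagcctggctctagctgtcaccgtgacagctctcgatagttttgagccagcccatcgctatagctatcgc
COX7B is shown at chr3L:17425232-17425506 (plus strand, summit at base 150), with its start at base 246.
COX7B: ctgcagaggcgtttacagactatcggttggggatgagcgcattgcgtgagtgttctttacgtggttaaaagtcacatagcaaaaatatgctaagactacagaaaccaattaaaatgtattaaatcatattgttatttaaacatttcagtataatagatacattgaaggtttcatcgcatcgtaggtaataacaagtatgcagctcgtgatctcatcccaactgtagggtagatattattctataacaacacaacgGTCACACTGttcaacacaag
ATPsynC is shown at chr3R:31219601-31219818 (minus strand, summit at base 150), with 1 of its 3 starts at base 189.
ATPsynC: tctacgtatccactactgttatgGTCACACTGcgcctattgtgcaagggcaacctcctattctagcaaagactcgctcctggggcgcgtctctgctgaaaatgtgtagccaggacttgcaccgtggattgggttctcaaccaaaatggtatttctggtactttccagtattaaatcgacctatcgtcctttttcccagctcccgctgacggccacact
In COX5A the CACTG begins 6 bases after the summit, whereas in COX7B and ATPsynC the capitals lie 106 bases after and 126 bases before it. TATCGATA, the site of the promoter factor Dref, was searched as well and was present in none of the 6.

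The 4 genes of complex I ahead of ND-SGDH had the highest peaks. ND-ASHI encodes an accessory subunit of the membrane arm (the counterpart of human NDUFB8). Its peak (chromosome X, 6679276 to 6679480, summit 6679365) ranked 269 in the thresholded list, 341 in replicate 2 and 245 in replicate 4. Its deposited signal was 207 in the thresholded list and 103 in each replicate. The summit lay 247 bp upstream of the ND-ASHI start and inside an intron of the neighbouring gene Fum1, whose nearest start was 275 bp away. Fum1 encodes fumarase, an enzyme of the tricarboxylic acid (TCA) cycle, so 2 genes of mitochondrial energy metabolism share this peak.

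ND-MWFE encodes a small membrane subunit (the counterpart of human NDUFA1). Its peak (chromosome 2R, 13158255 to 13158664, summit 13158460) ranked 301 in the thresholded list, 576 in replicate 2 and 229 in replicate 4, with a signal of 82.7 in replicate 2 and 106 in replicate 4. The summit was 206 bp upstream of ND-MWFE but only 15 bp from a start of the protease gene TppII, in an intron of that gene. The peak is therefore nearer to TppII than to the complex I gene.

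ND-24 and ND-51 encode flavoprotein subunits of the NADH-oxidizing module (the counterparts of human NDUFV2 and NDUFV1). The ND-24 peak (chromosome X, 17631944 to 17632353, summit 17632149) ranked 640, with rank 527 and signal 85.2 in replicate 2 and rank 869 and signal 58.7 in replicate 4. It was the one summit of the 11 that lay downstream of its gene's nearest start, 60 bp past it and in the 5' UTR of ND-24. The ND-51 peak (2L, 6062645 to 6063054, summit 6062850) ranked 668, with rank 675 and signal 77.3 in replicate 2 and rank 639 and signal 68.9 in replicate 4. Its summit was 93 bp upstream of ND-51 and 139 bp from the start of CG13994. Both subunits of this pair therefore had peaks of almost the same rank, which the replicates placed in opposite order.

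ND-SGDH (the counterpart of human NDUFB5) had a weaker peak (3L, 12138411 to 12138820, summit 12138616, 32 bp upstream), of rank 2231 and signal 76.5. Replicate 4 held it at rank 2162, while replicate 2 had no summit within 100 bp. The highest ND-SGDH promoter peak of replicate 2, of rank 2067, lay instead 143 bp upstream of the start. This was the one of the 11 peaks without a summit within 100 bp in both replicate lists. The other 10 had one (90.9%), against 1492 of 1596 thresholded promoter peaks of all genes (93.5%).

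Complex IV had the largest share of genes with a thresholded promoter peak, 4 of 16 (25.0%, interval 7.27 to 52.4%), or 4 of its 8 genes that are not paralogues (interval 15.7 to 84.3%). The shares stand beside 14.4% of all protein-coding genes and 17.5% of the 63 subunit genes other than paralogues. Both rest on the same 4 genes, of the complex picked for its largest share, so the intervals are no test against these backgrounds. When each peak was given to its nearest start alone, COX5A and COX7B remained, 2 of 16 (12.5%), against 10.5% of all protein-coding genes. COX5A encodes a subunit on the matrix side of cytochrome c oxidase. Its peak (3R, 11819321 to 11819730, summit 11819526) ranked 734, with rank 665 and signal 77.9 in replicate 2 and rank 1119 and signal 51.6 in replicate 4. The summit was 73 bp upstream of one COX5A start, but in an intron of COX5A and so downstream of the gene's first start. It was 106 bp from a start of glo, which encodes an RNA-binding translational repressor.

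COX6B encodes a subunit on the intermembrane space side, where cytochrome c docks. Its peak (X, 19744189 to 19744598, summit 19744394) ranked 1055, with rank 1729 and signal 49.8 in replicate 2 and rank 817 and signal 60.7 in replicate 4. The nearest starts, 37 bp away, were those of CG33932 and Rpp20. COX6B began 59 bp from the summit, as did the protein-coding gene CG18809 on the same strand. The COX7B peak (3L, 17425176 to 17425585, summit 17425381) ranked 1092, with rank 1893 and signal 47.6 in replicate 2 and rank 893 and signal 58.1 in replicate 4. COX7B, a small subunit gene, began 96 bp from the summit, and the exocyst gene Sec3 began 164 bp away on the other side. COX6B and COX7B both stood higher in replicate 4, and COX5A in replicate 2.

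The COX5B peak (2L, 6557327 to 6557736, summit 6557532) ranked 1337, with rank 1702 and signal 50.3 in replicate 2 and rank 1518 and signal 44.1 in replicate 4. COX5B encodes the zinc-binding matrix subunit. The summit was 268 bp upstream of COX5B and 30 bp from the start of IFT52, a gene of intraflagellar transport. With a promoter window of 250 bp in place of 500 bp this peak no longer counted for COX5B. The other 4 subunit genes of complex IV had peaks in the pooled list alone, so all 8 had a pooled promoter peak, and the median of their best pooled ranks was 2721. Among them, COX8 ranked 4105.

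Complex V had 2 of 15 genes with a thresholded promoter peak (13.3%, interval 1.66 to 40.5%), against 14.4% of all protein-coding genes. Both encode subunits of the membrane part. The gene of the alpha subunit, blw, lies outside the symbol rule and had a thresholded promoter peak too, at rank 760. The peak at ATPsynF, the gene of subunit f (2R, 24599689 to 24600098, summit 24599894), ranked 2049, with rank 1983 and signal 46.6 in replicate 2 and rank 2793 and signal 32.5 in replicate 4. It lay 73 bp upstream of ATPsynF and 53 bp from the start of CG3548. The peak at ATPsynC, the gene of the subunit that forms the rotating ring (3R, 31219464 to 31219873, summit 31219669), ranked 2551 and was the weakest of the 11. Replicate 4 held it at rank 2898 and signal 31.9, while the nearest summit of replicate 2, 91 bp away, had rank 13629. Replicate 2 had a higher ATPsynC peak, of rank 1454, at 2 bp upstream of another of the gene's 3 start sites. Its summit was 165 bp from that of replicate 4. Neither complex V gene remained when the peaks were limited to the 1379 with the highest signal. The share in complex V was then 0%, against 7.72% of all protein-coding genes. From the 2758 highest peaks of replicate 4 alone, without replicate 2, it was 1 of 15 (6.67%), against 13.7% of all. That gene was ATPsynE. By nearest start it was also 1 of 15, ATPsynC, against 10.5% of all.

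**Figure D1:**
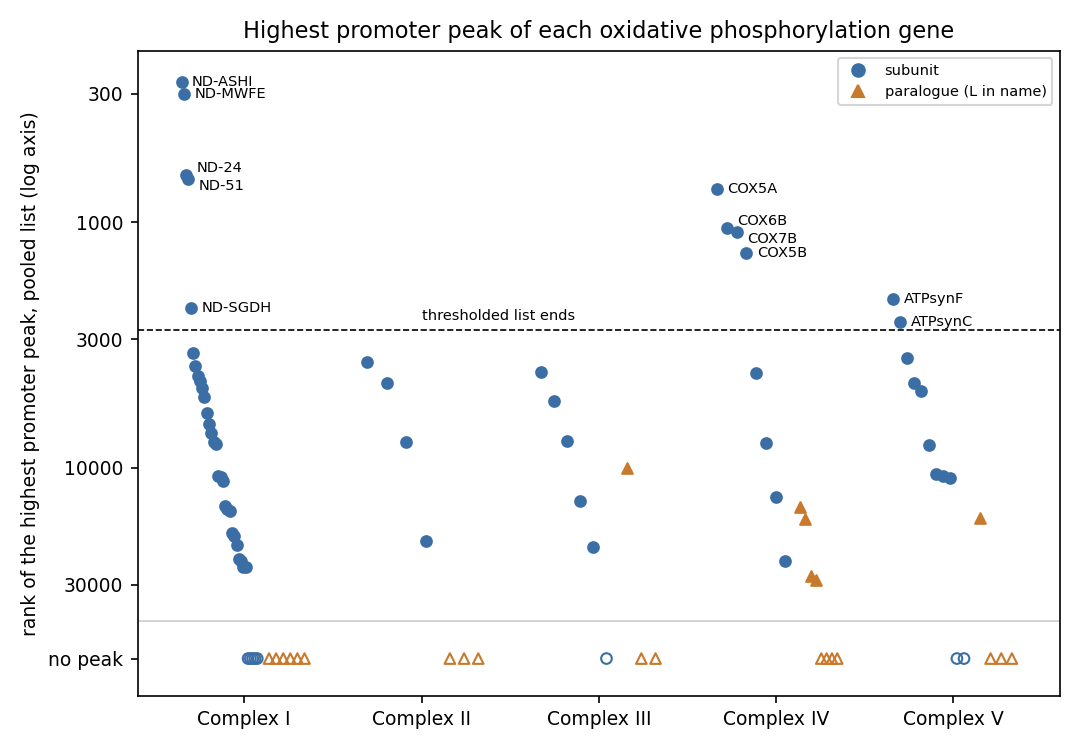
Rank of the highest promoter peak of each gene in the pooled list (vertical log axis, rank 1 at the top), by complex, with 1 point per gene; open symbols are genes with no pooled promoter peak, and Sdhaf3 is not drawn. The 11 labelled genes lie above the dashed line at rank 2758, and all are in complexes I, IV and V, while the paralogues (triangles) lie at rank 9994 or further down, or have no peak.

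No gene of complex II (0 of 7) or complex III (0 of 9, which allows a share of up to 33.6%) had a thresholded promoter peak. With so few genes, shares at the background level could not be told from 0. All 4 subunit genes of complex II and 5 of 6 of complex III nevertheless had peaks in the pooled list. The highest of complex II was at SdhC, a membrane anchor of succinate dehydrogenase, with pooled rank 3705 and signal 58.5. Replicate 2 ranked it 2166 and replicate 4 ranked it 4395, with summits 181 bp apart, 293 and 112 bp upstream of the start. SdhC would have counted from the 2758 highest peaks of replicate 2 alone. SdhD, the other membrane anchor, had pooled rank 4501 and signal 52.5, with rank 6490 in replicate 2 and 4130 in replicate 4. In complex III, UQCR-Q, a small subunit, had pooled rank 4083 and signal 55.5, with rank 4213 in replicate 2 and 5712 in replicate 4. UQCR-C2, which encodes a core protein, had pooled rank 5369 and signal 47.6, with rank 7702 in replicate 2 and 8586 in replicate 4.

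The genes closest below the end of the thresholded list were ND-PDSW, ATPsynbeta and SdhC. The pooled peak at ND-PDSW, a membrane arm subunit, had rank 3407 and signal 61.1, with a summit 338 bp downstream of the start. Its replicates differed, with rank 7606 in replicate 2 and 2560 in replicate 4. ATPsynbeta, which encodes the catalytic subunit of ATP synthase and lies on chromosome 4, had rank 3579 and signal 59.7 and was held alike by both replicates, at rank 4058 in replicate 2 and 4009 in replicate 4. The weakest thresholded gene, ATPsynC, had a signal of 71.4.

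The pooled and replicate lists hold 30000 peaks each and reach much further down. In the pooled list 61 of the 88 genes (69.3%, interval 58.6 to 78.7%) had a promoter peak, against 54.7% of all protein-coding genes. In replicate 2 the count was 58 (65.9%, against 56.2% of all) and in replicate 4 it was 51 (58.0%, against 51.0% of all). Among the 2758 highest peaks of each replicate, 12 genes had a promoter peak in replicate 2 (13.6%, against 14.6% of all) and 11 in replicate 4 (12.5%, against 13.7% of all). The share was thus above the background in the long lists and near it among the highest peaks. Both replicate lists held a promoter peak for 45 genes (51.1%, against 43.5% of all). No list held one for 23 of the 88, against 4950 of all 13945 protein-coding genes.

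The paralogues and the other subunit genes differed in the long lists. Of the 63 other subunit genes, 55 (87.3%, interval 76.5 to 94.4%) had a pooled promoter peak, against 6 of 24 paralogues (25.0%, interval 9.77 to 46.7%). The same split was present in each replicate, with 52 of 63 (82.5%) against 6 of 24 in replicate 2, and 46 of 63 (73.0%) against 5 of 24 in replicate 4. In the thresholded list it was 11 of 63 (17.5%, interval 9.05 to 29.1%) against 0 of 24, which allows a share of up to 14.2%. The median best pooled rank was 7217 for the 55 and 16090 for the 6. For all protein-coding genes with a pooled promoter peak it was 6288. Subunit genes were therefore often at a peak, but their peaks were not higher than those of other genes: 11 of the 55 were in the thresholded list, against 2010 (26.3%) of the 7634 protein-coding genes with a pooled promoter peak.

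The 3 highest pooled peaks at paralogues were far from the paralogue's start. UQCR-6.4L had pooled rank 9994 with a summit 352 bp upstream, and COX7CL had rank 14410 with a summit 364 bp upstream, in the 3' UTR of COX7C. ATPsynCF6L had rank 15972 with a summit 428 bp upstream, in an intron of Con. Of the 6 pooled summits at paralogues, 5 lay more than 300 bp from the start (83.3%), against 6 of 55 at the other subunit genes (10.9%) and 17.5% at all protein-coding genes.

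**Figure D2:**
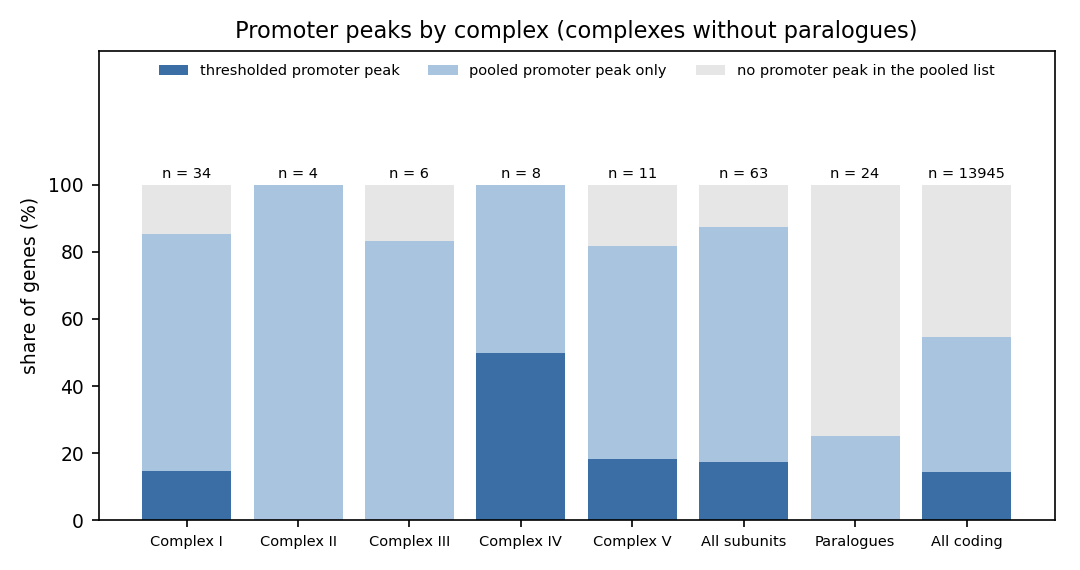
Share of genes (percent, vertical axis from 0) by their highest promoter peak, for the subunit genes of each complex without paralogues, all of these together, the paralogues and all protein-coding genes. Each bar is split into genes with a thresholded promoter peak, with one in the pooled list alone and with none, and n is the number of genes. In the pooled list 87.3% of the 63 subunit genes and 25.0% of the 24 paralogues had a promoter peak, against 54.7% of all protein-coding genes.

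The 8 subunit genes without a pooled promoter peak were ND-75, ND-ACP, ND-AGGG, ND-B12, ND-B14.7, UQCR-C1, ATPsynG and ATPsyndelta. ND-75 encodes the large iron-sulfur subunit of complex I, and UQCR-C1 encodes a core protein of complex III. Of the 8, ND-75 and ND-B12 had a weak promoter peak in replicate 2, at ranks 29647 and 24817. Between these and the thresholded genes, the subunit genes were spread along the pooled list, with 12 of 63 (19.0%) at ranks 2759 to 5000, 11 (17.5%) at ranks 5001 to 10000, 14 (22.2%) at ranks 10001 to 20000 and 7 (11.1%) in the last 10000. The shares of all protein-coding genes in these ranges were 8.86%, 12.4%, 12.2% and 6.95%.

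The replicates ranked the genes alike to about the degree seen for all genes. Over the 45 genes with a promoter peak in both replicates, Spearman's rho of the ranks was 0.677 and Pearson's r of their log10 values was 0.778, against 0.700 and 0.787 over 6067 protein-coding genes. These correlations are across genes, which share the same pair of libraries and are not independent replicates. The higher rank was in replicate 2 for 23 genes and in replicate 4 for 22. The median ratio of the ranks was 1.60, against 1.69 for all genes. Summits of the 2 replicates lay within 100 bp of each other for 29 of the 45 (64.4%, against 60.1%).

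The ranks differed most at ATPsynE, UQCR-14 and ND-20. At ATPsynE, a subunit of the membrane part of ATP synthase, the rank was 16172 in replicate 2 and 2269 in replicate 4, a ratio of 7.13, and the summits were 363 bp apart. At UQCR-14, a small complex III subunit, it was 15380 in replicate 2 and 3680 in replicate 4. At ND-20, which carries an iron-sulfur cluster of complex I, it was 4948 in replicate 2 and 18982 in replicate 4. ATPsynE was among the 2758 highest peaks in replicate 4 only.

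**Figure D3:**
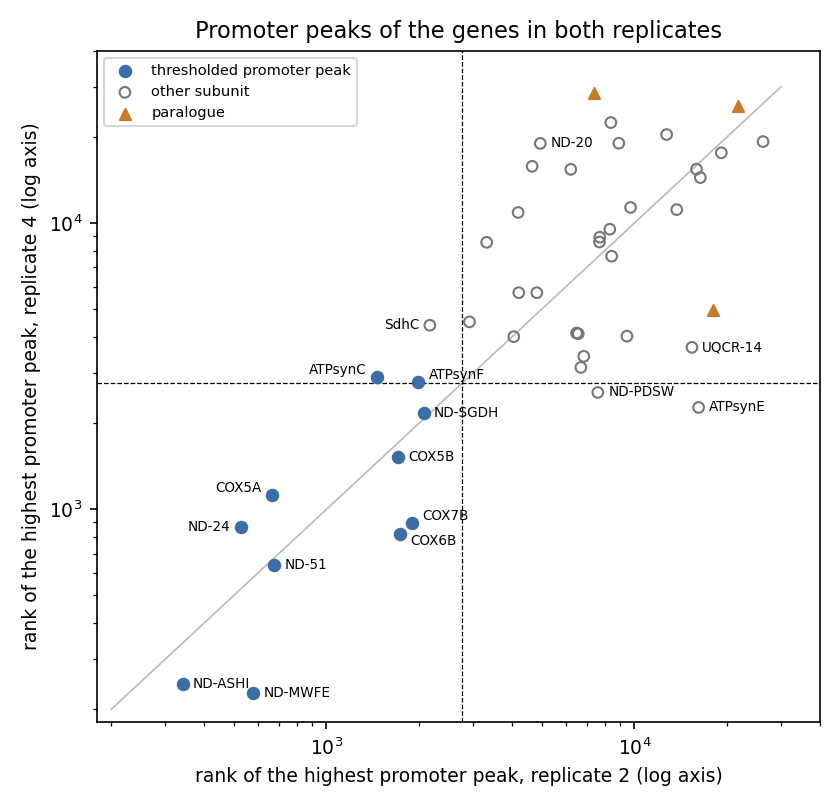
Rank of the highest promoter peak of each of the 45 genes present in both replicates (both axes log, rank in replicate 2 across and in replicate 4 upwards); filled points have a thresholded promoter peak, triangles are paralogues, dashed lines are at rank 2758 and the grey line marks equal ranks. Of the 11 thresholded genes, 9 lie inside both dashed lines and ATPsynC and ATPsynF just beyond that of replicate 4, and ATPsynE, at 16172 and 2269, is the farthest from equality.

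Summits at the thresholded genes lay close to the gene's nearest start and mostly upstream of it. For 10 of 11 (90.9%) the summit was upstream of that start, with a median position of -73 bp and a range of -268 to 60 bp. COX5A is counted among these, although its summit was downstream of the gene's first start. For all 2010 protein-coding genes with a thresholded promoter peak, 86.6% were upstream and the median was -120 bp. A summit within 100 bp was found for 8 of 11 (72.7%), against 38.5% of the 2010. In the pooled list, 36 of the 55 subunit genes (65.5%) had a summit within 100 bp, against 41.1% of 7634, and 34 of the 55 summits (61.8%) were upstream, against 72.4%. Summits at the subunit genes were nearer to the start in both lists. The distance is to the nearest annotated start, and 50.8% of the 63 subunit genes had 2 or more, against 26.5% of all protein-coding genes. The part of this in the distances was not tested.

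**Figure D4:**
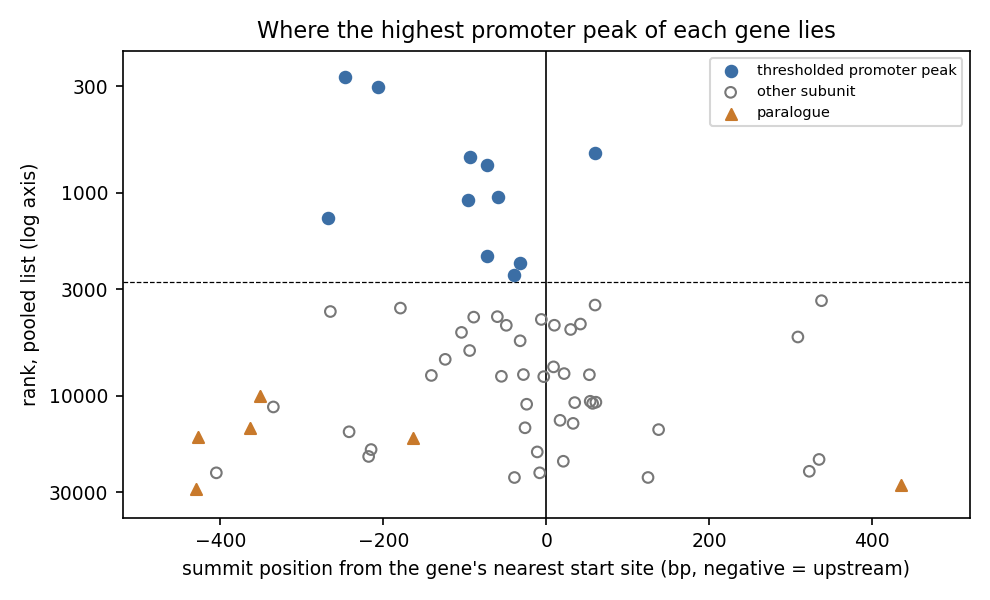
Summit of the highest pooled promoter peak of each of the 61 genes, by its position from the nearest start site of the gene (horizontal, bp, negative is upstream) and its rank (vertical log axis, rank 1 at the top); the dashed line is at rank 2758, open circles are subunit genes below it and triangles are paralogues. The 11 thresholded summits lie between -268 and 60 bp, with a median of -73 bp.

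All 11 thresholded summits also lay within 500 bp of a start site of another gene, and in 10 of 11 cases (90.9%) this other gene was protein-coding. The exception, ATPsynC, has small RNA records nearby, mir-4949 among them. Among all 1596 thresholded promoter peaks, 41.8% had a start of a second gene within 500 bp and 37.3% that of a second protein-coding gene. Those shares count each peak once, whereas the 11 were reached through genes. Counted by gene, another gene started within 500 bp of a start for 1261 of the 2010 protein-coding genes with a thresholded promoter peak. The same held for 40 of the 63 subunit genes other than paralogues (63.5%), with or without a thresholded peak. The start nearest to the summit was that of the oxidative phosphorylation gene in 7 of 11 cases (63.6%). It belonged to the neighbour at ND-MWFE, COX6B, COX5B and ATPsynF. When each peak was given to its nearest start alone, 7 of 88 genes remained, while all protein-coding genes fell to 10.5%. Which of the paired genes, if either, responds to the protein was not tested here.

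The pairs were described by a measure chosen after their values were seen: a protein-coding start on the opposite strand 0 to 1000 bp upstream. Such a divergent partner was present for 44 of the 88 genes, and for 40 of the 63 subunit genes other than paralogues (63.5%). It was present for 4 of 24 paralogues (16.7%) and for 36.2% of all protein-coding genes. Of the 11 thresholded genes, 10 had one, with starts 20 bp (COX5A and glo) to 298 bp (COX5B and IFT52) apart. Of the 52 subunit genes without a thresholded peak, 30 had one (57.7%). Among the 2010 protein-coding genes with a thresholded promoter peak the share was 64.0%.

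Read the other way, 10 of 40 subunit genes with a divergent partner had a thresholded promoter peak (25.0%), against 1 of 23 without (4.35%). The shares over all protein-coding genes were 25.5% and 8.13%. The subunit genes with a partner were thus near the share of other genes with a partner. By complex, a partner was present for 22 of 34 subunit genes of complex I, 1 of 4 of complex II, 2 of 6 of complex III, 7 of 8 of complex IV and 8 of 11 of complex V. Complexes II and III, with 4 and 6 such genes, were lowest both in this share and in the share of thresholded genes. In complex I, 5 of 22 genes with a partner were thresholded and 0 of 12 without. These counts were 4 of 7 and 0 of 1 in complex IV, but 1 of 8 and 1 of 3 in complex V. A link between partners and the differences among complexes was not tested.

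A second property of the genes varied with the peaks. Of the 53 genes with a single annotated start site, 3 had a thresholded promoter peak (5.66%), against 8 of the 35 with more (22.9%). Over all protein-coding genes the shares were 10.8% and 24.3%. Of the 24 paralogues, 21 had a single start site, so the number of start sites and being a paralogue moved together. Among the other subunit genes the shares were 3 of 31 with a single start site (9.68%) and 8 of 32 with more (25.0%). A gene with several start sites also has more positions at which a summit is counted, and the part of this in the result was not tested.

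Short sequences known from fly promoters were looked for in either orientation. In the 100 bp to each side of the 11 summits, CACTG was present in 5 (45.5%), against 46.8% of 1596 thresholded promoter peaks. CAACACTG, which holds CACTG, was present in 2 (18.2%, at COX5A and COX6B), against 6.08%. TATCGATA and GTCACACT were present in none, against 7.64% and 4.20%, and TCAAGGTCA, the site of the nuclear receptor ERR, in none of either. TTANNTAA was present in 3 (27.3%, against 18.7%), GAGAG in 2 (18.2%, against 22.5%), CAGCTG in 1 (against 12.0%) and CACGTG in none (against 2.76%). With 11 sequences such shares move in large steps.

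The same sequences were counted around start sites, in a window of another length and centre. From 250 bases before to 50 after the outermost start, GTCACACT was present at 14 of 63 subunit genes other than paralogues (22.2%), 1 of 24 paralogues (4.17%) and 6.62% of all protein-coding genes. It was present at 5 of the 11 thresholded genes (45.5%) and 9 of the 52 other subunit genes (17.3%). Around the summits, 5 of the 11 had it when 250 bp to each side were searched, but these were not the same 5. They included ND-SGDH, where it began 132 bases after the summit, and not COX5B. No share of all thresholded promoter peaks is given for that window. The 5 with it around the start were ND-MWFE, COX5A, COX5B, COX7B and ATPsynC. It began 25 bases after the start at ND-MWFE, 13 after at COX5B and 10 after at COX7B. At COX5A it began 36 bases before the start and at ATPsynC 165 before. In the printed COX7B sequence it stands at the start site, away from the summit. In the window around the start, TATCGATA was present at 9 of 63 subunit genes (14.3%), all without a thresholded peak, and at 9.36% of all protein-coding genes. ND-SGDH, a thresholded gene, had it 96 bases after the summit, so that with 250 bp to each side of the summit 1 of 11 had it (9.09%). CACTG, which overlaps GTCACACT in GTCACACTG, was present at 9 of the 11 (81.8%) and 23 of the 52 (44.2%), beside 46.2% of all. CAGCTG was present at 1 of the 11 (9.09%) and 18 of the 52 (34.6%), beside 17.7% of all. The shares of the 11 and the 52 were 27.3% and 13.5% for GAGAG, 27.3% and 34.6% for TTANNTAA, 9.09% and 5.77% for CAACACTG, and 0% and 3.85% for CACGTG, and TCAAGGTCA was in neither.

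Other genes of energy metabolism, outside the symbol rule, were taken from a list of 45 names, of which 43 were found and were not among the 88. Of these, 10 (23.3%) had a thresholded promoter peak and 36 (83.7%) a pooled one, beside 14.4% and 54.7% of all protein-coding genes. Among 10 further subunits and electron carriers the thresholded ones were blw, levy and Cyt-c-d. The peak of blw, the alpha subunit of ATP synthase, ranked 760, with rank 774 in replicate 2 and 752 in replicate 4. That of levy, a complex IV subunit, ranked 1898, with rank 1664 in replicate 2 and 2440 in replicate 4. That of Cyt-c-d, one of the cytochrome c genes, ranked 243, with rank 189 in replicate 2 and 333 in replicate 4, and its summit was 377 bp downstream of the start.

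Of 15 genes of the TCA cycle, 5 had a thresholded promoter peak (33.3%). These were Fum1, through the peak it shares with ND-ASHI, the aconitase gene mAcon1 (rank 841), the isocitrate dehydrogenase genes Idh3b (rank 1075) and Idh3g (rank 1131), and the oxoglutarate dehydrogenase gene Ogdh (rank 2614, with a summit 424 bp upstream). Of 10 regulators and factors of mitochondrial DNA, 2 had one: ERR, a nuclear receptor that controls metabolic genes (rank 1010), and mtSSB, the single-stranded DNA binding protein of mitochondria (rank 539). None of 3 assembly factors and none of 5 carriers had one, although all 5 carriers had a pooled promoter peak. The carrier genes sesB and Ant2 shared theirs, at pooled rank 17407, and neither had a promoter peak in replicate 4.

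The 11 thresholded genes were spread over the genome, with 2 each on 2L, 2R, 3L and 3R, 3 on X and none on chromosome 4. The deposited signal over the whole thresholded list ran from 68.4 to 1148 with a median of 99.1. The 11 peaks lay between 71.4 and 207, with a median of 114, against a median of 101 for the 1596 thresholded promoter peaks of all genes. The highest peaks of the list were thus at other genes. The number of reads behind each peak is not known from these lists, and 2 replicates of 1 condition allow no test of a change.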

How the data were processed

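The 4 narrowPeak lists for dm6 were used: thresholded, pooled and 1 per replicate. The deposited signal is the value the authors' caller gave each peak, on a scale that is not stated, and signals and ranks were used only within a list. The summit is the peak start plus the deposited summit offset. Per the deposited records, the authors obtained the thresholded list by an irreproducible discovery rate procedure. Which aligner and caller were run is not given in the sources used here, and read depth is unknown.

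The dm6 lists were joined to Ensembl release 115 BDGP6 start sites, without transposable element records. Intervals are exact 95% binomial intervals (Clopper-Pearson) over genes and cover counting error only. The genes and lists were chosen with earlier results of these data known, so no test of enrichment was made. Named genes are those with a thresholded promoter peak, the 3 next in the pooled list, up to 2 per complex, the 3 with the most different replicate ranks, up to 4 paralogues with a pooled peak, and pathway genes with a thresholded peak. The result for 1 of the paralogues is not reported here. Others were named after their values were seen: COX8, the subunit genes without a pooled peak, and partner genes. The assignment of peaks to genes was tested on simulated data. Python 3.11.15, numpy 2.4.6, scipy 1.17.1, pandas 2.3.3 and matplotlib 3.10.9 were used. The dm3 lists were not used here.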

Additional observations from a re-analysis of the deposited data

How the results depend on the processing

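Of 75 values recomputed under other settings, 67 moved by less than their counting interval and 8 moved by more. The number of genes with a thresholded promoter peak was 10 with a window of 250 bp (without COX5B), 13 with 1000 bp (with ATPsynE and COX7AL2), 8 among the 1379 highest peaks (without ATPsynC, ATPsynF and ND-SGDH) and 7 by nearest start. All protein-coding genes changed with these settings too, to 11.8%, 16.5%, 7.72% and 10.5%. The share in complex V became 0% among the 1379 highest peaks and 6.67% without replicate 2 or by nearest start, and that in complex IV became 12.5% by nearest start. The share of genes with a pooled promoter peak was 55.7% with a window of 250 bp. No share of all protein-coding genes is given for the pooled list at that window, so 55.7% cannot be set beside the 54.7% at 500 bp. From 1 replicate list alone the share of genes was 58.0% without replicate 2 (against 51.0% of all protein-coding genes). Without replicate 4 it was 65.9% (against 56.2%). With summits matched within 200 bp, 100% of the 11 peaks were in both replicate lists. From the 2758 highest peaks of 1 replicate, the count was 11 genes without replicate 2, of which 9 were shared, and 12 without replicate 4. With 250 bp to each side of the summits, GTCACACT was present in 45.5%, CACTG in 90.9%, CAGCTG in 45.5% and TATCGATA in 9.09% of the 11. With 50 bp CAGCTG was in 0%. A longer window holds a short sequence more often, and no share of all thresholded promoter peaks is given for these windows. The cause of these changes beyond window size and list length was not tested. The divergent partner measure, added after seeing the data, gave 10 of 11 within 500 bp as well. No paired analysis was possible because there is 1 group. Groups of 4 to 16 genes limit the comparison of complexes, and the lists give no read depth.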
